A study of Mus musculus and Rattus norvegicus with 53 samples.

Results

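The hedgehog genes examined here were the 3 ligand genes Shh, Dhh and Ihh, the receptor gene Ptch1, the signal transducer gene Smo, the GLI transcription factor genes Gli1, Gli2 and Gli3, and the gene of the ligand-binding inhibitor Hhip. They were taken by symbol from the gene counts of sorted mouse Schwann cells (SCs), where they were 9 of 24016 genes. Of the 9, 8 passed the filter on low counts in both experiments and Ihh passed in neither. The study transected the sciatic nerve of tdTomSC mice of 6 to 8 weeks and either sex, which carry a Cre transgene that recombines in SCs and a Rosa26-tdTomato reporter, and sorted tdTomato+ cells by FACS. The uncut contralateral nerve gave intact SCs (iSCs), the nerve beyond the cut gave distal stump SCs (dSCs), and the new tissue joining the stumps gave bridge SCs (bSCs). Every group carried the same reporter and received no agent. In one experiment the nerves of 3 mice were pooled in each library and iSCs, dSCs and bSCs of day 6 had 4 libraries each. In the other, each library came from a single nerve, with 5 iSC libraries, 3 dSC libraries on each of 6 days (1, 2 and every second day from 4 to 10) and 3 bSC libraries on each of the last 4 of those days. Replicates of the single nerves are separate animals, and those of the pools are separate groups of animals.

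Hedgehog ligands are secreted lipid-modified proteins that bind the receptor encoded by Ptch1. Binding relieves the block that this receptor places on Smoothened, and the signal passes through the primary cilium to the GLI factors. Gli1, Ptch1 and Hhip are themselves transcribed when the pathway is active and are commonly used as its readout, and Ptch1 and Hhip also hold the ligand back. In peripheral nerve, Dhh is known as a SC ligand needed to form the perineurium, and Shh is known to be made by SCs after injury.

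The 3 ligands descend from one ancestor and keep similar coding sequences, so their alignment is shown to make plain how far reads of one could be taken for reads of another. The windows are the 120 coding bases in which Shh and Dhh were most alike, and the matching bases of Ihh, written 5′ to 3′ on the coding strand. Capitals in Shh mark bases that differ from Dhh, and capitals in Dhh and Ihh mark bases that differ from Shh.
Shh: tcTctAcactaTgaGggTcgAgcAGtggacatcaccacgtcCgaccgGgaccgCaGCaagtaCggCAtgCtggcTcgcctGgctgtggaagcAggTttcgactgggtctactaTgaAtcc
Dhh: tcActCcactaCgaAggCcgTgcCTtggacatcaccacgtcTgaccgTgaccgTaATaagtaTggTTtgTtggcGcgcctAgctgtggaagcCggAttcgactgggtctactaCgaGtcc
Ihh: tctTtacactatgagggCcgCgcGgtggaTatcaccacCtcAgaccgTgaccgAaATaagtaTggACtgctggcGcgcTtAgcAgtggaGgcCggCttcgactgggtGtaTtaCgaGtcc
All of these windows lie in exon 2 of 3 on the minus strand of NCBIM37, the Ensembl name of the mm9 build to which the authors aligned, at chr5:28787893-28788012 for Shh, chr15:98725275-98725394 for Dhh and chr1:74994909-74995028 for Ihh. In this window Dhh matched Shh at 97 of 120 bases and Ihh matched Shh at 95. Over the whole transcripts the longest identical run was 17 bases between Shh and Dhh, 17 between Shh and Ihh and 16 between Dhh and Ihh.

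By the GENCODE annotation of NCBIM37, Shh spans chr5:28783355-28793641, Dhh chr15:98723462-98728971 and Ihh chr1:74991891-74998246. Ptch1 spans chr13:63610261-63674474, Smo chr6:29685694-29711365, Hhip chr8:82490014-82581905, Gli1 chr10:126766945-126778645, Gli2 chr1:120730709-120950196 and Gli3 chr13:15555068-15821859. The library method does not keep strand, and antisense genes overlap some exons. The lincRNA 9530036O11Rik shares 291 exon bases with Shh and was counted at 0 to 91 reads per library, Gm17493 shares 361 exon bases with Shh, and Arhgap9 shares 55 exon bases with Gli1 and was counted at 0 to 1933 reads. Reads in those shared bases cannot be assigned to a strand.

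Between 11435463 and 22617054 reads per pooled library and between 9240883 and 22426128 per single-nerve library were counted on genes. Sox10, the transcription factor that defines SCs, was present at 219.5 to 422 CPM (a gene's counts per unit of library size, with TMM factors) in pooled iSCs, 69.001 to 182 in dSCs and 62.96 to 219 in bSCs. In single nerves Sox10 was 21.1 to 107 CPM in iSCs. In dSCs it was 6.85 to 72.5 CPM at day 1, 19.3 to 69.1 at day 2, 36.1 to 64.8 at day 4 and 102 to 166 at day 6. Markers of other cells were present despite the sort: the sum of 11 macrophage markers was 284 to 1190 CPM in single-nerve iSCs, 2436 to 13363 in dSCs of days 4 to 10 and 1100 to 13614 in bSCs of those days. The sum of 8 endothelial markers was 1765 to 4698 CPM in single-nerve iSCs, against 160 to 744 in pooled iSCs. A pair of libraries went against their labels. The bSC and dSC libraries of day 4, replicate 1, both of one animal, differed by a chi-square per degree of freedom of 3.96, against at least 47.9 in every other of 1081 pairs, so the Shh and Dhh results over days 4 to 10 are given with and without both. In addition, 4 single-nerve libraries (iSC replicates 0 and 1, dSC day 1 replicate 1 and dSC day 2 replicate 0) held counts for 10042 to 11138 genes, against at least 11983 in the others, and results were recomputed without them.

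Shh, nearly absent from intact SCs, was the member that rose after injury. In single-nerve iSCs it stood at 0.837, 0.359, 1.37, 3.00 and 1.78 CPM. In dSCs it was 14.9, 0.374 and 22.2 CPM at day 1 and 99.5, 160 and 227 CPM at day 2, the day with the highest values. It then stood at 41.5, 42.0 and 104 CPM at day 4 and at 74.0, 87.8 and 28.7 CPM at day 6. At day 8 the dSC values were 25.1, 46.0 and 39.0 CPM, and at day 10 they were 4.23, 55.0 and 45.6 CPM. From day 2 onwards every dSC library lay above every iSC library, and at day 1 the replicate at 0.374 CPM, one of the 4 libraries with few genes, lay within the iSC range.

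Averaged over days 4 to 10, Shh was higher in dSCs than in iSCs by 4.97 on the log2 scale (SE 1.01, adjusted p = 0.00377, edgeR's quasi-likelihood test with Benjamini-Hochberg adjustment over 15519 genes). This was 1 of 8 members tested that passed an adjusted p of 0.05, where 5.32% of all genes passed, and 1 of 8 whose 12 dSC libraries did not overlap the 5 iSC libraries, where 1.91% of all genes did not overlap. The change passed with each library left out in turn (adjusted p 0.0030 to 0.0152) and was 5.06 without the near-identical pair and 4.58 without the 4 libraries with few genes. In the F test of any difference among iSCs and the 6 dSC days, Shh passed as 1 of 8 members (edgeR adjusted p = 0.0310), where 0.767% of all genes passed. That call was lost without the near-identical pair (adjusted p = 0.0507), without the 4 libraries with few genes (0.141) and on leaving out any of the 5 iSC libraries, dSC day 1 replicate 0, or dSC day 2 replicate 3 or 4 (0.0501 to 0.0902).

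Taken day by day, 14 contrasts were tested for 8 members, and 3 of these 112 tests passed, all of them Shh. In all 14 contrasts together, 0.578% of tests over all genes passed. The log2 difference of dSCs from iSCs was 6.74 (SE 1.17) at day 2, 5.36 (SE 1.11) at day 4 and 5.39 (SE 1.11) at day 6, with edgeR adjusted p of 0.00350, 0.00831 and 0.0134. In the same contrasts 0.445%, 1.73% and 0.554% of all genes passed. Without the near-identical pair the day 4 difference was 5.62 (edgeR adjusted p = 0.0157). At days 8 and 10 the differences were 4.59 (SE 1.08) and 4.53 (SE 1.08), just beyond the threshold, with edgeR adjusted p of 0.0525 and 0.0535. At day 1 the difference was 3.04 (SE 1.03, edgeR adjusted p = 0.436).

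In the pooled experiment the separation of Shh between dSCs and iSCs was as wide. It was 61.1, 55.6, 34.6 and 54.8 CPM in dSCs and 0.0778, 0.508, 3.10 and 1.93 CPM in iSCs, the last from 1 to 41 reads, so that every dSC library lay above every iSC library. The log2 difference was 5.19 (SE 1.62, 95% interval 1.71 to 8.67), and it did not pass the adjusted threshold (edgeR adjusted p = 0.0884). It did pass with DESeq2 (adjusted p = 0.00200) and when only these 2 groups were fitted (edgeR adjusted p = 0.00776). Among the 8 members, 2 (Shh and Dhh) had dSC libraries that did not overlap the iSC libraries, where 17% of all genes did not.

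**Figure D1:**
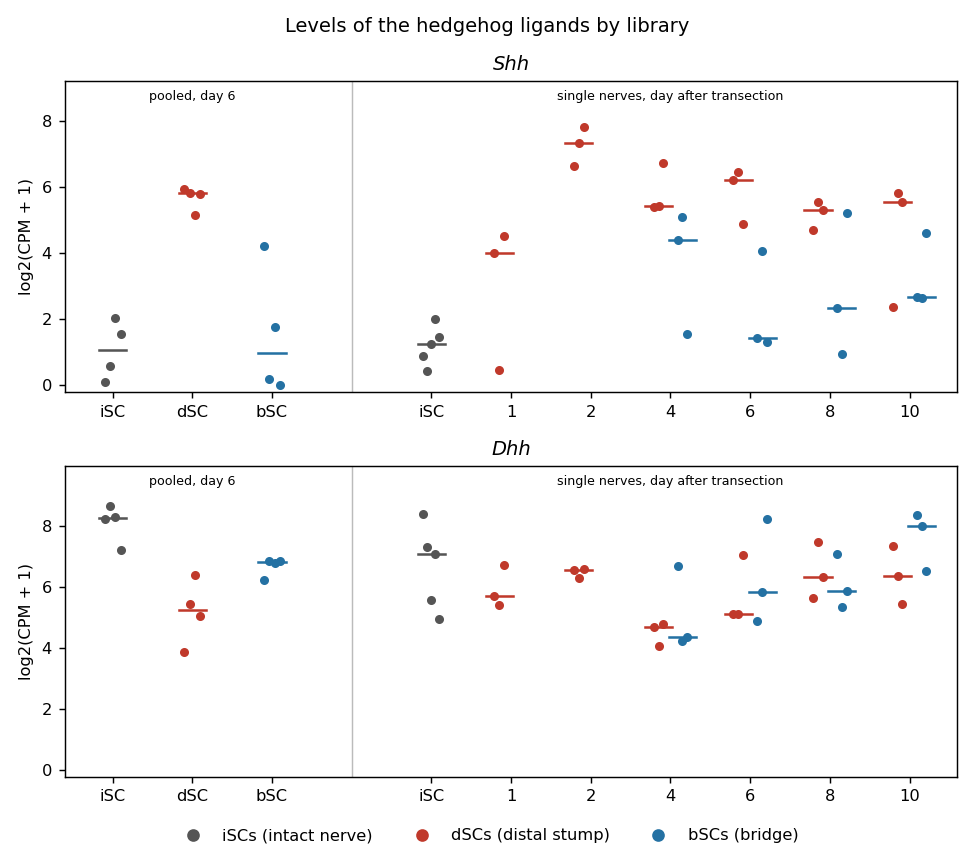
Levels of Shh (top) and Dhh (bottom) in each library as log2(CPM + 1), with pooled libraries left of the line and single-nerve libraries by day after transection right of it; points are libraries, short lines are group medians, and grey, red and blue stand for iSCs, dSCs and bSCs. Shh is highest in dSCs of day 2, at 99.5 to 227 CPM, and its bSC median lies below its dSC median on each of the 4 days with both, while Dhh is highest in pooled iSCs, at 148 to 405 CPM.

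Shh in the bridge lay between iSCs and dSCs and varied more. The bSC values were 20.003, 33.2 and 1.94 CPM at day 4 and 1.71, 15.8 and 1.48 CPM at day 6. They were 4.11, 0.921 and 36.1 CPM at day 8 and 5.45, 5.30 and 23.4 CPM at day 10. Some bSC libraries were thus within the iSC range while others reached the lower dSC values. Averaged over these days, Shh was higher in bSCs than in iSCs by 2.93 on the log2 scale (SE 0.89, edgeR adjusted p = 0.0359), again as 1 of 8 members passing, where 9.34% of all genes passed. No member separated all bSC from all iSC libraries, where 1.24% of all genes did. The call was lost without the near-identical pair (2.76, edgeR adjusted p = 0.0597) and without the 4 libraries with few genes (2.54, edgeR adjusted p = 0.111). It was also lost when only these groups were fitted (2.92, edgeR adjusted p = 0.159) and without any 1 of 8 libraries. These were iSC replicates 0, 1, 3 and 5, bSC day 4 replicate 1, day 6 replicate 1, day 8 replicate 2 and day 10 replicate 3, with edgeR adjusted p of 0.0552 to 0.0851.

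In pooled bSCs Shh was 17.7, 0.146, 2.40 and 0 CPM, from 394, 2, 28 and 0 reads. Pool 1 was high, the next 2 were within the iSC range, and the last, with 0 reads, lay below that range. The difference from iSCs was 1.85 (SE 1.41, edgeR adjusted p = 0.443) and fell below zero, to -0.75, when pool 1 was left out. Every bSC library lay below every dSC library, and the difference of bSCs from dSCs was -3.34 (SE 1.47, 95% interval -6.52 to -0.17, edgeR adjusted p = 0.205). Without pool 1 of the bSCs it was -5.97 and passed (edgeR adjusted p = 0.0453).

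The single-nerve design holds 10 pairs of bSC and dSC libraries from the same animal with matching labels, and Shh was lower in the bridge in 10 of 10. An 11th pair, of day 10 replicate 0, shares its animal number and its replicate number. The title of its bSC library names another animal, so the pair was kept apart. There Shh was higher in the bridge, at 5.45 CPM against 4.23, so that it was lower in 10 of 11 with that pair. An agreement in all of the 10 pairs towards lower values in bSCs was seen for 0.606% of all genes. The paired differences ran from -5.65 to -0.11 on the log2 scale with a median of -2.52. The smallest were in the pair of day 8, replicate 2 (-0.11), and in the near-identical pair (-0.34). Over days 4 to 10 the difference of bSCs from dSCs was -2.03 (SE 0.59, 95% interval -3.24 to -0.82), which did not pass (unadjusted p = 0.00172 and adjusted p = 0.169 by edgeR). Without the near-identical pair it was -2.30 (edgeR adjusted p = 0.167). With the animal as a block over the 10 pairs it was -2.46 (edgeR adjusted p = 0.107), with the 11th pair added -2.31 (edgeR adjusted p = 0.148), and without the near-identical pair -2.80 (edgeR adjusted p = 0.0928). With DESeq2 it passed at -2.08 (adjusted p = 0.00650), and without bSC day 8 replicate 2 it passed in edgeR at -2.67 (adjusted p = 0.0295).

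No member passed in this comparison of bSCs with dSCs by edgeR, where 0.103% of all genes passed. At an unadjusted p under 0.05 there was 1 of 8 members, beside 1398 of 15519 genes. DESeq2 called 1 of 8 members, beside 579 of 15519 genes. In the fit without a block 16 of 15519 genes passed. With the animal as a block, which uses only the paired libraries and so other genes, 236 of 16190 passed over the 10 pairs, 69 of 15371 with the 11th pair and 177 of 16138 without the near-identical pair, with no member among them. Neither a member nor any of all genes (0%) had bSC and dSC libraries that did not overlap over days 4 to 10. The differences among days of the bSC to dSC contrast passed for no member and for 0% of all genes by edgeR. No member had an unadjusted p under 0.05 in that test, and DESeq2 called no member and 6 of all genes.

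**Figure D2:**
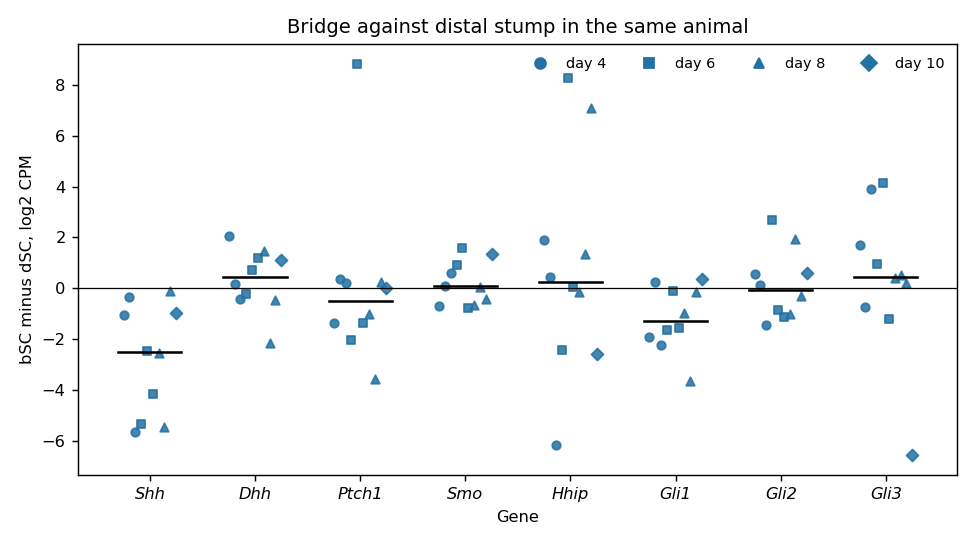
Difference in log2 CPM between the bSC and the dSC library of the same animal for 8 members; each point is 1 of the 10 animals with matching labels (the 11th pair, in which Shh was higher in the bridge, is not plotted), its shape gives the day after transection, and black lines are medians. All 10 Shh points lie below 0 with a median of -2.52, and 8 of 10 Gli1 points lie below 0 with a median of -1.28, while the other members lie on both sides.

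Dhh, the ligand of intact SCs, moved the other way in the pooled experiment. It was 298, 405, 316 and 148 CPM in pooled iSCs, 13.6, 42.4, 82.6 and 31.9 CPM in dSCs, and 73.5, 116, 111 and 114 CPM in bSCs. Every injured library lay below every iSC library, and 3 of the 4 bSC libraries lay above every dSC library. Dhh fell in dSCs by 2.78 on the log2 scale (SE 0.47, edgeR adjusted p = 0.00459 over 13751 genes), as 1 of 8 members passing where 5.32% of all genes passed, and the call held with each library left out in turn (adjusted p 0.00197 to 0.0234).

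In bSCs Dhh fell by 1.496 (SE 0.45, edgeR adjusted p = 0.0412), as 1 of 8 members passing where 14.7% of all genes passed. Both Dhh and Ptch1, 2 of 8 members, had bSC libraries that did not overlap those of iSCs, where 25% of all genes did not. The bSC call stood near the threshold. It was lost with the pool number as a block (-1.64, edgeR adjusted p = 0.0618) and without any 1 of 7 of the 8 libraries, the exception being iSC pool 5 (edgeR adjusted p 0.0655 to 0.114 in those 7). Between bSCs and dSCs Dhh differed by 1.28 (SE 0.45, 95% interval 0.31 to 2.25, edgeR adjusted p = 0.112). It passed with DESeq2 (1.26, adjusted p = 0.0464) and without dSC pool 3 (1.82, edgeR adjusted p = 0.0312). By edgeR 0 of 8 members passed between pooled bSCs and dSCs, where 5.43% of all genes passed. At an unadjusted p under 0.05 there were 2 of 8, Shh and Dhh, beside 2957 of 13751 genes. DESeq2 called 1 of 8, Dhh, beside 1939 of 13751 genes. In that comparison 2 of 8 members, Shh and Ptch1, did not overlap, where 15.4% of all genes did not.

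In the single nerves the fall of Dhh did not pass the test. The iSC values spread from 331 and 156 CPM in replicates 0 and 1 to 46.7, 134 and 30.1 CPM in replicates 3, 4 and 5. The dSC values were 51.3, 41.2 and 104 CPM at day 1, 93.9, 76.8 and 96.4 CPM at day 2, and 24.7, 15.8 and 26.4 CPM at day 4, where all 3 lay below all iSC libraries. They were 33.6, 33.8 and 133 CPM at day 6, 48.6, 178 and 78.9 CPM at day 8, and 163, 80.5 and 42.3 CPM at day 10, back within the iSC range. At day 4 the difference was -2.64 (SE 0.84, edgeR adjusted p = 0.0964), and DESeq2 called it (adjusted p = 0.00874). Averaged over days 4 to 10 it was -1.18 (SE 0.52, edgeR adjusted p = 0.184), -1.03 without the near-identical pair, and -0.13 without the 4 libraries with few genes, which include the iSC libraries with the highest Dhh.

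In bSCs of single nerves Dhh was 102, 17.9 and 19.8 CPM at day 4, 28.5, 56.1 and 301 CPM at day 6, 133, 39.9 and 57.4 CPM at day 8, and 325, 254 and 91.3 CPM at day 10. The bSC values overlapped those of iSCs and dSCs. The difference from iSCs was -0.47 (SE 0.53, edgeR adjusted p = 0.674), -0.31 without the near-identical pair and 0.56 without the 4 libraries with few genes. The difference from dSCs was 0.71 (SE 0.42, edgeR adjusted p = 0.707), or 0.72 without the near-identical pair, with Dhh higher in the bridge in 6 of 10 animals and lower in 4.

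Ihh, the third ligand, was at or near 0. No read was counted in 43 of the 47 libraries, and the other 4 held 6 and 21 reads (pooled iSCs), 16 reads (pooled dSCs, pool 3) and 9 reads (single-nerve iSCs, replicate 4). With 0 reads, 3 counts are the limit that counting error allows, which is 0.13 to 0.579 CPM depending on the library. It was therefore not tested.

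Compared per kilobase of exon, the level in pooled iSCs was led by Dhh, at 123 ± 45.1 CPM per kb (SD, n = 4), followed by Smo at 15.5 ± 2.91. Next came Gli1 at 5.07 ± 4.22, Hhip at 3.14 ± 3.67, Ptch1 at 2.13 ± 1.45, Gli2 at 1.36 ± 1.03, Gli3 at 1.27 ± 1.46, Shh at 0.522 ± 0.513 and Ihh at 0.192 ± 0.307. Dhh and Smo stood apart from each other and from the rest, and neighbours from Gli1 down differed by less than the larger of their SDs. In pooled dSCs the level of Shh per kb, at 19.1 ± 4.32, and that of Dhh, at 18.04 ± 12.4, no longer differed beyond their spread.

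Of the receptors, Ptch1, which binds the ligand and restrains Smo, was 28.2, 10.3, 7.41 and 10.1 CPM in pooled iSCs, 7.72, 17.8, 7.82 and 23.3 CPM in dSCs, and 2.60, 7.31, 0.0859 and 0.233 CPM in bSCs. The bSC libraries lay below all libraries of the other regions, and those of iSCs and dSCs overlapped. The difference of bSCs was -2.45 from iSCs (SE 1.16, edgeR adjusted p = 0.187) and -2.47 from dSCs (SE 1.16, edgeR adjusted p = 0.240), and the difference of dSCs from iSCs was 0.02 (SE 1.10, 95% interval -2.36 to 2.39). In single nerves Ptch1 ranged from 0 to 44.7 CPM in iSCs, from 0 to 32.1 in dSCs of days 4 to 10, and from 0.260 to 62.4 in bSCs, with overlap of all groups. The difference of bSCs from dSCs there was -0.33 (SE 0.73, 95% interval -1.83 to 1.17).

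Smo, the transducer that Ptch1 holds in check, was 53.9, 45.7, 65.3 and 69.9 CPM in pooled iSCs, 27.1, 62.4, 21.6 and 34.2 CPM in dSCs, and 43.6, 37.1, 70.9 and 51.4 CPM in bSCs. The regions overlapped, and the difference of dSCs from iSCs was -0.69 (SE 0.37, 95% interval -1.49 to 0.10, edgeR adjusted p = 0.401). In single nerves the differences averaged over days 4 to 10 were 0.12 for dSCs and 0.40 for bSCs against iSCs, with 95% intervals of -1.11 to 1.34 and -0.85 to 1.65.

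Hhip, which binds hedgehog ligands at the cell surface without passing on a signal, was 6.62, 1.78, 11.5 and 41.6 CPM in pooled iSCs, 20.9, 12.4, 7.30 and 2.01 CPM in dSCs, and 0, 8.77, 0 and 0 CPM in bSCs. It had no read in 3 of 4 bSC libraries, and pool 2 fell within the range of the other regions. The difference of bSCs from iSCs was -2.81 (SE 1.88, edgeR adjusted p = 0.372). Without bSC pool 2 all remaining bSC libraries were at 0, and the test against iSCs and against dSCs then passed (edgeR adjusted p = 0.00738 and 0.0230). In single nerves Hhip was detected in the bridge in 10 of 12 libraries, from 0 to 43.7 CPM, and from 0 to 144 CPM in iSCs, where replicate 5 held the highest value. The differences from iSCs were -2.26 in dSCs (SE 1.35, edgeR adjusted p = 0.365) and -1.76 in bSCs (SE 1.36, edgeR adjusted p = 0.484), with 95% intervals of -5.02 to 0.49 and -4.53 to 1.01.

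The GLI factors did not pass in any of the comparisons. Gli1, an activator and target of the pathway, was 14.6, 7.57, 11.9 and 42.8 CPM in pooled iSCs, 38.4, 14.8, 13.1 and 31.1 CPM in dSCs, and 15.9, 9.28, 3.61 and 0 CPM in bSCs. The regions overlapped. In dSCs its difference from iSCs was 0.34 (SE 1.13, 95% interval -2.08 to 2.77) in the pooled experiment and 0.25 (SE 0.88, 95% interval -1.54 to 2.04) over days 4 to 10 of the single nerves. The Shh difference in those dSC comparisons was 5.19 and 4.97. In the bridge Gli1 differed from dSCs by -1.76 (SE 1.16, edgeR adjusted p = 0.427) in the pooled experiment and by -0.79 (SE 0.67, edgeR adjusted p = 0.905) in single nerves, and it was lower in the bridge in 8 of 10 animals.

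Gli2, the main activator of the pathway, was 0.660 to 17.3 CPM in pooled iSCs, 2.06 to 14.2 in dSCs and 4.98 to 18.5 in bSCs. Gli3, known mainly as a repressor, was 0.305 to 32.0 CPM in pooled iSCs, 10.0 to 74.7 in dSCs and 6.54 to 21.997 in bSCs. The groups overlapped for both genes. Against iSCs Gli2 differed by -0.47 (SE 0.99) and Gli3 by 1.34 (SE 1.02) in pooled dSCs, and by 0.14 (SE 0.82) and -0.39 (SE 0.96) in dSCs of days 4 to 10. The 95% intervals were wide, -0.85 to 3.53 for Gli3 in pooled dSCs and -1.54 to 1.82 for Gli2 in single nerves.

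**Figure D3:**
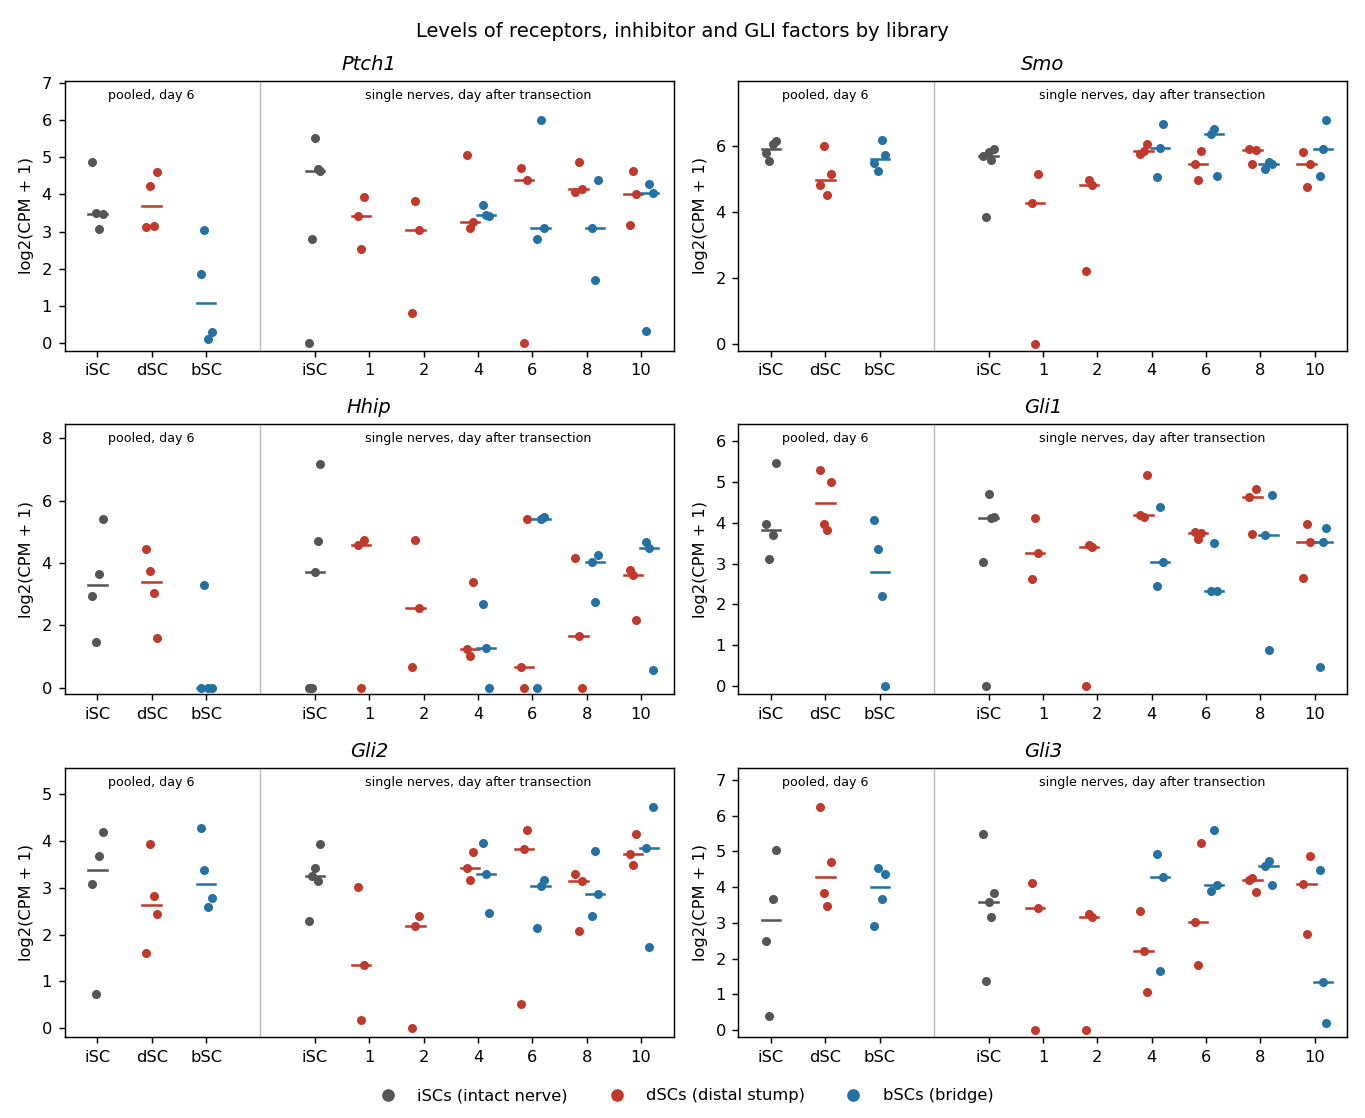
Levels of Ptch1, Smo, Hhip, Gli1, Gli2 and Gli3 in each library as log2(CPM + 1), arranged and coloured as in the plot of the ligands, with short lines at group medians. Ptch1 is lower in the 4 pooled bSC libraries, at 0.0859 to 7.31 CPM, than in the pooled iSCs and dSCs, Hhip has no read in 3 of those 4, and the pooled regions overlap for the other 4 genes.

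**Figure D4:**
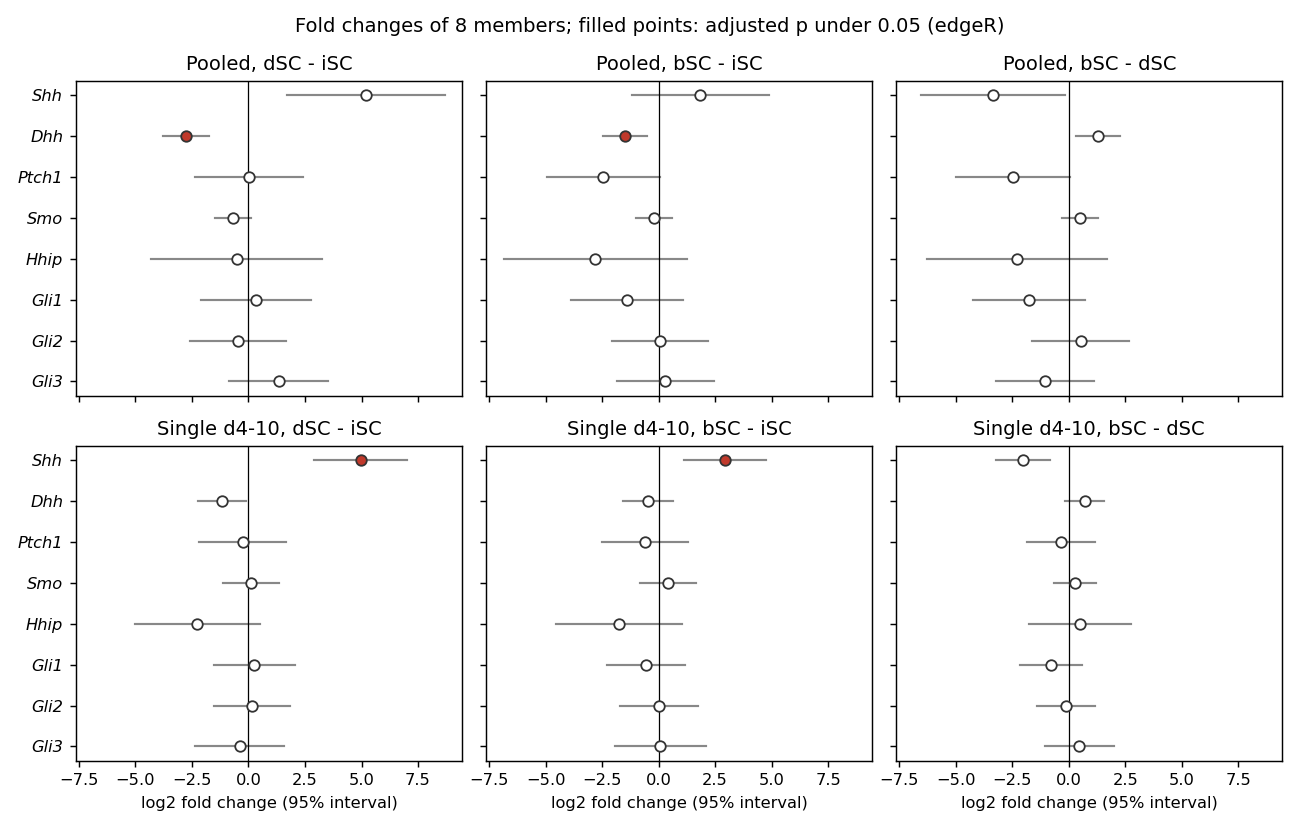
Log2 fold change of 8 members in the pooled (top) and single-nerve (bottom) comparisons, with 95% intervals as lines; filled points passed an adjusted p of 0.05 in edgeR. Dhh is filled in the comparisons of pooled dSCs and bSCs with iSCs, at -2.78 and -1.496, and Shh in those of single-nerve dSCs and bSCs with iSCs, at 4.97 and 2.93.

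Markers of SCs and of other cells moved with several of these results. Of 8 SC markers, 7 passed as lower in pooled dSCs and 7 in pooled bSCs against iSCs, with medians of -3.01 and -2.87. In those comparisons 5.32% and 14.7% of all genes passed. The SC marker sum was 26776 to 67459 CPM in pooled iSCs, 1283 to 4767 in dSCs and 1594 to 4510 in bSCs. In single nerves 3 of the 8 passed as lower in dSCs and 4 in bSCs of days 4 to 10. The macrophage sum was 200 to 5454 CPM in pooled iSCs, 9715 to 15842 in dSCs and 2475 to 7611 in bSCs. In single nerves 9 of 11 macrophage markers rose in dSCs of days 4 to 10 and 11 of 11 in bSCs. Of all genes 5.32% and 9.34% passed there. None of the 11 passed between these bSCs and dSCs. Their sum was 2759 to 6027 CPM in dSCs of day 2, when Shh was highest, and 10351 to 13363 at day 4. Of 8 repair SC markers, 3 (Gdnf, Ngfr and Olig1) rose against iSCs in pooled dSCs and in pooled bSCs. Of the same 8, 1 (Gfap) fell in pooled dSCs. In single nerves 3 (Bdnf, Ngfr and Olig1) rose in dSCs of days 4 to 10 and 1 (Ngfr) in bSCs, and none fell. Summed perineurial markers (10 genes) were 1014 to 1327 CPM in pooled iSCs, 279 to 900 in dSCs and 293 to 558 in bSCs, where 5 of the 10 fell and 1 rose against iSCs. Msln, a defining one, was at 0 to 0.0859 CPM in pooled bSCs, while Moxd1 rose there by 1.91 (SE 0.56, edgeR adjusted p = 0.0355). Summed fibroblast markers (12 genes) were 6380 to 29894 CPM in pooled iSCs, 16690 to 26472 in dSCs and 1306 to 5450 in bSCs, where Ptch1 and Hhip were also low. In single nerves this sum was 12530 to 23112 CPM in iSCs and 3132 to 17175 in bSCs of days 4 to 10. There Ptch1 overlapped between bSCs and iSCs (-0.59, SE 0.93), and Hhip had no read in 2 of 5 iSC and 2 of 12 bSC libraries. The part of all these markers in the results was not tested. In bulk libraries fewer cells of a type and less RNA per cell cannot be told apart.

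Other genes of the pathway were grouped by role. Of 9 genes of ligand processing and release, 7 were tested. None passed in dSCs against iSCs in either experiment by edgeR (0 also at an unadjusted p under 0.05, and 0 by DESeq2). In pooled bSCs 1 of 7 passed against iSCs and 2 of 7 against dSCs, where 14.7% and 5.43% of all genes passed. Gpc3, a glypican that binds hedgehog ligand, fell against iSCs by 2.68 (SE 0.61, edgeR adjusted p = 0.0104). Against dSCs Gpc3 fell by 2.92 (SE 0.62, edgeR adjusted p = 0.0189) and Scube1, of a secreted family in which Scube2 helps release the ligand, fell by 4.65 (SE 1.17, edgeR adjusted p = 0.0367). Gpc3 stood at 448 to 2433 CPM in pooled iSCs, 1442 to 1725 in dSCs and 65.9 to 497 in bSCs, and Scube1 at 54.7 to 97.3 in dSCs and 0 to 9.57 in bSCs. None of these 7 passed in the 3 single-nerve comparisons by edgeR. An unadjusted p under 0.05 was reached by 1 of 7 in each of the bSC comparisons. Over all genes it was reached by 3679 of 15519 against iSCs and 1398 of 15519 against dSCs. DESeq2 called 1 of 7 in bSCs against dSCs, beside 579 of 15519 genes.

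Of the coreceptors Boc, Cdon and Gas1, none passed in the 6 comparisons of pooled or averaged single-nerve libraries by edgeR. An unadjusted p under 0.05 was reached in 2 of these comparisons and DESeq2 called 1, in each case for Gas1 alone. Gas1, a gene named after its values were seen, differed by -1.82 (SE 0.69) in pooled bSCs against iSCs, which DESeq2 called. In single-nerve dSCs it differed by -0.85 (SE 0.37). Over all genes an unadjusted p under 0.05 was reached by 3926 of 13751 and 3186 of 15519 in these comparisons. DESeq2 called 3114 of 13751 genes in the pooled one. Of 12 cytoplasmic regulators, such as Sufu, 11 were tested in the pooled and 12 in the single nerves, and none passed by edgeR, against 3 of 69 tests at an unadjusted p under 0.05 and 0 by DESeq2. Of 20 cilium genes all were tested, and 2 of 20 passed in pooled bSCs against iSCs, where 14.7% of all genes passed. These were Kif3a, a kinesin motor subunit of ciliary transport, and Evc2, a ciliary protein that acts next to Smo. Both fell in pooled bSCs against iSCs, Kif3a by 1.57 (SE 0.30, edgeR adjusted p = 0.00359) and Evc2 by 2.41 (SE 0.47, edgeR adjusted p = 0.00421). The median of the 20 in that comparison was -0.47, beside -0.16 over all genes tested. None of the 20 passed in the 3 single-nerve comparisons by edgeR. Their medians there were 0.44 in dSCs against iSCs, 0.17 in bSCs against iSCs and -0.42 in bSCs against dSCs.

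Of 19 reported targets of the pathway, 12 were tested in the pooled and 16 in the single nerves. Against iSCs 1 of 12 passed in pooled dSCs and 2 of 12 in bSCs, where 5.32% and 14.7% of all genes passed, and 1 of 16 in single-nerve dSCs and 3 of 16 in bSCs, where 5.32% and 9.34% passed. Ccnd1, which encodes the cell cycle activator cyclin D1 and is a target of many pathways, was 71.5 to 108 CPM in pooled iSCs, 581 to 1257 in dSCs and 620 to 1152 in bSCs. It rose in dSCs by 3.25 (SE 0.31, edgeR adjusted p = 0.000438) and in bSCs by 3.22 (SE 0.31, edgeR adjusted p = 6.2e-05), and in single nerves by 1.24 (SE 0.29, edgeR adjusted p = 0.0112) and 1.06 (SE 0.29, edgeR adjusted p = 0.0187). Bcl2, a survival gene, fell in pooled bSCs by 2.67 (SE 0.79, edgeR adjusted p = 0.0381), and Bmp4, a secreted growth factor, fell in single-nerve bSCs by 3.17 (SE 0.90, edgeR adjusted p = 0.0242). Foxl1, a forkhead factor, also passed as lower in single-nerve bSCs (edgeR adjusted p = 0.00627), with 0 reads in all 12 bSC libraries and 0 to 5.70 CPM in iSCs. The other targets did not pass, and the median of the 12 tested in pooled dSCs was 0.30 and that of the 16 tested in single-nerve dSCs was -0.29, beside -0.02 and -0.08 over all genes.

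Among 13723 genes, those whose log2 CPM followed Shh most closely over the 35 single-nerve libraries were Gfra1, the GDNF coreceptor, with a Pearson coefficient of 0.90, then Atp6v0d2 at 0.82, Clcf1 at 0.81, Rgs2 at 0.80 and Nrcam at 0.79. Over the 12 pooled libraries the coefficients of the same genes with Shh were 0.80, 0.67, -0.07, 0.66 and 0.16. The genes closest to Dhh were Egfl8 at 0.83, Plekhb1 at 0.82, Vwa1 at 0.79, Sostdc1 at 0.79 and Mlip at 0.78, and in the pooled libraries these were 0.82, 0.90, 0.90, 0.96 and 0.94. The libraries share regions, days and depth, so these values describe likeness of pattern across the same samples only.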

How the data were processed

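RNA-seq counts of 47 mouse libraries were used, 12 of pooled and 35 of single nerves, and cultured rat SC libraries were not used here. The authors made the libraries with a Smart-seq2 protocol, aligned reads with TopHat2 2.0.11 to mm9, and used HTSeq for gene counts. The deposited values are these raw counts, not normalized. Lanes of a library were summed, and HTSeq's own categories and ERCC spike-ins were left out. Groups came from the sample labels. Positions and exon lengths came from GENCODE on NCBIM37. CPM are counts scaled to library size with TMM factors. Tests used edgeR 4.0.16 in R 4.3.3: filterByExpr by group, TMM, the quasi-likelihood test in one fit per experiment, and Benjamini-Hochberg adjustment over all genes tested. SE is the log2 fold change over the root of F, and log2 CPM used a prior count of 2. Reads on genes numbered 9240883 to 22617054 per library. PCR reads without molecular identifiers are not independent molecules, so the floor of 3 counts covers counting error only. The edgeR fit and test of dSCs against iSCs were tried on simulated counts in each experiment, and the other steps were not.

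Named genes were the members, the listed pathway genes passing in at least 1 of the 6 pooled or averaged comparisons, cell type markers, and the 5 genes most like Shh and Dhh. The members and lists were chosen with earlier results of these data known. Alternatives were DESeq2 1.42.0, its size factors, no filter, the filter of the study's single-nerve methods (100 counts in 85% of libraries, which only Dhh and Smo passed), only the groups compared, each library left out, and a replicate block. Pairing came from the animal of the labels. Deviations from the group means of same-animal bSC and dSC libraries correlated at -0.0624 to 0.677 over 11 single-nerve pairs and at 0.00155 to 0.0802 over 4 pooled pairs. The value of 0.677 was that of the near-identical pair. The next highest single-nerve value was 0.368, and the median of the 11 was 0.0623. One day 10 pair with conflicting animal labels was left out of the block. Some listed genes are not reported here.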

Additional observations from a re-analysis of the deposited data

Results flagged for a closer look

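In each group of 4 or 5 libraries, the highest or lowest CPM of a member was flagged where its gap to the next library was large against the group's whole range (Dixon's ratio at the 95% level). Of 35 member and group pairs, 9 were flagged. A chance rate of 1 in 20 holds only for normally distributed values, which these CPM need not be, so the 9 were not set against it. A group with reads in only 1 library is always flagged, as for Ihh in both groups below and Hhip in pooled bSCs. In pooled bSCs, pool 1 stood apart for both ligands, with Shh at 17.7 CPM against 0 to 2.40 in the others and Dhh at 73.5 CPM against 111 to 116. Pool 1 of the bSCs also had the fewest genes detected of the pooled libraries, 11735. Hhip was at 8.77 CPM in pool 2 of the bSCs and at 0 in the others. Ptch1 was at 28.2 CPM in pool 1 of the iSCs against 7.41 to 10.3. Ihh was at 1.18 CPM in pool 3 of the dSCs and at 0.458 CPM in single-nerve iSC replicate 4, with 0 in the other libraries of each group. In single-nerve iSCs, Hhip was at 144 CPM in replicate 5 against 0 to 25.1, Smo at 13.4 CPM in replicate 1 against 46.4 to 58.3, and Gli3 at 43.4 CPM in replicate 0 against 1.61 to 13.3. Replicates 0 and 1 are the iSC libraries with few genes detected.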

How the results depend on the processing

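Counts below are of members passing an adjusted p of 0.05. In pooled dSCs against iSCs the count of 1 became 2 (Dhh and Shh) with DESeq2 and with only the groups compared. Over all genes 732 of 13751 passed in the main fit, 1393 of 13751 with DESeq2 and 887 of 13354 with only these groups. In pooled bSCs against iSCs the count of 1 became 0 with the replicate block by pool and ran from 0 to 1 over single left-out libraries. In pooled bSCs against dSCs the count of 0 became 1 (Dhh) with DESeq2, which called 1939 of 13751 genes against 746, and the count ran from 0 to 1. With the filter of 100 counts in 85% of libraries, which leaves 2 members, it became 0 for single-nerve dSCs and bSCs against iSCs, for dSCs over time and for the single days, since Shh was not tested. In single-nerve bSCs against iSCs the count became 0 with only the groups compared, and ran from 0 to 1 over left-out libraries. It was also 0 without the near-identical pair or the libraries with few genes, both chosen after seeing the data. Over all genes 1449 of 15519 passed there in the main fit and 541 of 14381 with only those groups. Without the pair 1157 of 16037 passed, and without those libraries 1186 of 16010. In bSCs against dSCs of days 4 to 10 the count of 0 became 1 (Shh) with DESeq2, which called 579 of 15519 genes against 16. The count ran from 0 to 1, and stayed at 0 with the animal as a replicate block. For dSCs over time the count became 0 without the near-identical pair or the libraries with few genes, and ran from 0 to 1. All genes passing there went from 119 of 15519 to 79 of 16037 without the pair and 86 of 16010 without those libraries. The 3 calls of single days became 8 with DESeq2 and 5 without a filter. The counts over all genes for single days with those settings are not reported here. The block changed no other call. Over all genes, calls with the block were 287, 968 and 236 in the 3 pooled comparisons (732, 2022 and 746 without it) and 236 in single-nerve bSCs against dSCs over 10 pairs, 69 with the day 10 pair of unlike labels and 177 without the near-identical pair (16 without a block, over more libraries).

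Over all alternatives 1450 member values were compared, of which 1412 kept their side of the threshold, 29 lost it and 9 gained it, and no called value changed sign. In 49 cases a value that passed in neither fit had the other sign. Receptor and GLI levels in iSCs ran from 0 to 69.9 CPM, and changes within their 95% intervals were not detectable at this number of libraries.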
